A study of Mus musculus with 4 samples.

Results

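Of the 24239 cell barcodes deposited for this series, 20198 had at least 3000 genes, at least 7500 UMIs (unique molecular identifiers, each standing for 1 captured RNA molecule) and at most 7% of UMIs from mitochondrial genes. The cells described here are the 447 of these (2.21%) that were chosen by a rule written for notochord: at least 2 UMIs of *T*, at least 1 UMI of 2 or more of *Noto*, *Shh*, *Foxa2*, *Chrd* and *Nog*, no *Tbx6* UMI and at most 1 *Nkx1-2* UMI. They are called the selected cells, because 1 set of them, those with a *Noto* UMI, carried the wider set of notochord genes and most of the others carried gut endoderm genes. The cells came from the caudal part of E8.5 mouse embryos, which was dissociated with trypsin and run through droplet-based scRNA-seq with a 3′ kit. WT and *Grhl3*-null embryos were obtained from intercrosses of *Grhl3*+/- mice kept on a C57BL/6 background, and the null embryos lack the transcription factor GRHL3 in all tissues. Cells of 5 WT embryos formed 1 pool and cells of 3 *Grhl3*-null embryos formed another, and each pool was loaded in 2 reactions. The 4 libraries are therefore 2 reactions of 1 pool per genotype, p-values measure the spread between reactions and not between embryos, and genotype and pool cannot be told apart.

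The notochord is the rod of axial mesoderm beneath the neural tube. Its cells use the transcription factors *T* (Brachyury), FOXA2 and NOTO, release Sonic hedgehog, which patterns the ventral neural tube and somites, and secrete Chordin and Noggin, which bind BMP ligands. In the caudal embryo it is laid down from the node and for a time is set into the roof of the gut, and *T* is also made by the progenitors of the tail bud while *Shh* and *Foxa2* are also made by gut endoderm, so no single gene of the rule marks notochord alone.

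The selected cells numbered 120 and 97 in the WT libraries and 111 and 119 in the *Grhl3*-null libraries. Values of the 4 libraries are given in the order WT 1, WT 2, *Grhl3*-null 1 and *Grhl3*-null 2. The selected cells held 6666169, 5329794, 5544308 and 6482329 UMIs, and their median per cell was 44651, 41575, 41258 and 45523 UMIs. The deposited libraries shared between 7 and 16 cell barcodes pairwise, out of 5698 to 6186 each. In a chi-square test over genes the summed counts of the paired reactions gave a chi-square per degree of freedom of 1.61 in WT and 1.92 in *Grhl3*-null. These sums come from different cells, so an excess over sampling noise does not show that the reactions themselves differed, and they were counted as libraries because the labels list them as separate samples. Among the 5% of cells per library that scored highest as possible doublets were 3, 4, 11 and 9 of the selected cells. *Grhl3* itself was at 1.5 CPM in the selected cells of both WT libraries and had no UMI in the selected *Grhl3*-null cells (CPM is counts per 1000000 UMIs summed over the cells of a library). Elsewhere in the filtered cells it was at 3.94, 3.69, 0.0544 and 0.0688 CPM, as the genotype labels state.

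The label notochord went against the data for most of the selected cells. A *Noto* UMI was present in 108 of the 447 cells (24.2%), namely 33, 29, 20 and 26 per library, and absent from 339 (75.8%), namely 87, 68, 91 and 93. Of 11 further genes that the study's marker table gives for notochord and that the rule did not use, at least 4 were detected in 103 of the 108 *Noto*-positive cells (95.4%) and in 27 of the 339 others (7.96%). Of 10 gut endoderm markers, at least 4 were detected in 252 of the 339 cells without *Noto* (74.3%) and in 11 of the 108 *Noto*-positive cells (10.2%). The cells without *Noto* were the deeper ones, and some of these markers are detected widely, so the same count was made with every cell thinned to 7500 UMIs. It then stood at 40.1% and 3.7%, against 0.908% of 661 ventral neuroepithelium-like cells (5.3% before thinning) and 3.18% of all other filtered cells (7.35% before thinning). Among 452 *T*-negative gut endoderm-like cells, chosen in part on gut markers, it was 75.9% (96.9% before thinning). The *Noto*-undetected cells thus lay below the gut endoderm-like cells and above the other sets. The study chose its table on these samples, so the first count is no independent evidence of identity. Only 21 of the 447 cells reached both counts and 75 reached neither. Below, "*Noto*-positive" means at least 1 *Noto* UMI and "*Noto*-undetected" none, which does not show that the gene was off in a given cell.

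**Figure D1:**
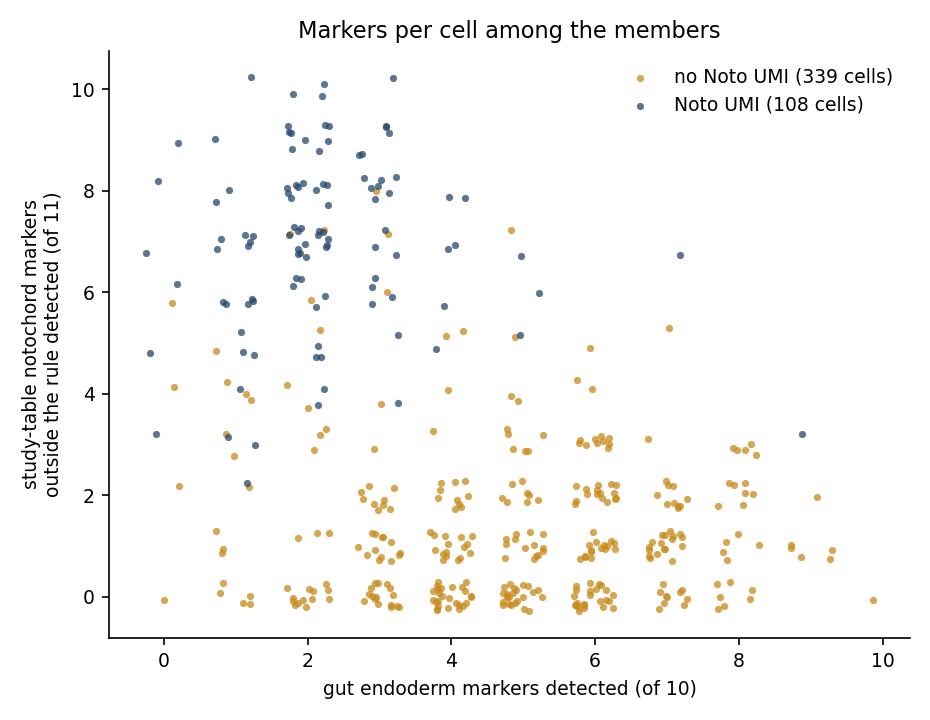
Each point is 1 selected cell, placed by how many of 10 gut endoderm markers (x axis) and of 11 study-table notochord markers outside the rule (y axis) had a UMI, with small offsets so that points do not hide each other. The 108 cells with a *Noto* UMI lie mostly at 4 or more notochord markers and the 339 cells without lie mostly below 4, with a median of 5 gut markers.

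The genes of the rule are given as descriptions, since they chose the cells. *T* had a median of 38 UMIs in the *Noto*-positive cells and of 6 in the *Noto*-undetected cells. Of the 108 *Noto*-positive cells, 69 had all of *Noto*, *Shh*, *Foxa2*, *Chrd* and *Nog* and 32 had 4 of them, whereas 250 of the 339 *Noto*-undetected cells had the minimum of 2. *Shh* with *Foxa2* was the pair most often met among the *Noto*-undetected cells, in 230 of 339, while *Chrd* with *Nog* was met in 19. A cell with *Noto* needed only 1 more of the 5 genes and a cell without needed 2, so the rule itself shapes these counts. In CPM, *T* stood at 1096, 1325, 1248 and 1265 in the *Noto*-positive cells and at 177, 189, 171 and 186 in the *Noto*-undetected cells. *Shh* stood at 444, 471, 469.9 and 634 CPM against 108, 88.1, 126 and 90.7 CPM. *Nog* stood at 223, 238, 239 and 286 CPM against 10.5, 11.1, 15.6 and 18.8 CPM. For none of these genes did the ranges of the *Noto*-positive and *Noto*-undetected cells meet. *Foxa2* was the closest, at 191 ± 25.3 CPM (SD, n = 4 libraries) against 98.6 ± 5.00 CPM.

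At the limits of the rule, 63 selected cells had exactly 2 *T* UMIs, of which 1 had *Noto*, and 135 cells with 1 *T* UMI that met the other conditions stayed outside, of which 5 had *Noto*. Among the 251 selected cells with exactly 2 of the 5 genes, 1 had *Noto*, and among 304 cells left out with 1 of the 5, 0 had *Noto*. The condition on *Tbx6*, a transcription factor of presomitic mesoderm, worked the other way. It left out 92 cells with 1 *Tbx6* UMI, of which 34 (37.0%) had *Noto*. Of 190 filtered cells with at least 2 *Noto* UMIs and at least 1 of *Shh*, *Foxa2*, *Chrd* and *Nog*, 93 were selected, 74 failed on *Tbx6* alone, 6 on *Nkx1-2* alone and 17 on both. Most *Noto*-expressing cells that the rule left out thus carried a UMI of *Tbx6*.

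Among genes outside the rule, *Samd3*, which encodes a SAM-domain protein, followed *Noto* most closely. *Samd3* was detected in 93.5% of the *Noto*-positive cells, 10.6% of the *Noto*-undetected cells, 0.221% of 452 *T*-negative gut endoderm-like cells and 1.43% of all other filtered cells. Its level was 140.2, 167, 124 and 162 CPM in the *Noto*-positive cells and 4.53, 2.77, 12.3 and 8.23 CPM in the *Noto*-undetected cells. The *Noto*-positive cells were the shallower ones, with median depths of 29307, 28136, 25896.5 and 30657.5 UMIs against 54243, 53687, 44019 and 50362 UMIs, so the higher detection came with fewer UMIs per cell. Over the 217 selected WT cells the Pearson correlation of log-normalised *Samd3* with *Noto* was 0.775, the highest of 11157 genes, whose median was -0.0232. Cells of 1 pool share depth and composition, and *T*, *Shh*, *Noto* and *Nog* chose the cells, so such correlations are descriptions. After *Samd3*, the genes most like *Noto* were *T* (0.743), *Slit2*, *Bicc1*, *Aplnr*, *Nog*, *Cthrc1* and *Ppp1r1a*. *Slit2*, a secreted guidance ligand, was the gene most like *T* (0.830), and *Aplnr*, the apelin receptor, was the gene most like *Shh* (0.783). The same short set of genes (*Samd3*, *Slit2*, *Aplnr*, *Nog* and *Cthrc1*) appeared among the 8 nearest to each of *Noto*, *T* and *Shh*. At the other end, *Cldn7* (-0.654) and *Epcam* (-0.590), both of epithelial contacts, ran most against *Noto* together with *Trim2* (-0.597).

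The promoters of *Noto* (gene at chr6:85423886-85428877, + strand) and *Samd3* (gene at chr10:26229707-26272172, + strand) are shown because these genes varied together from cell to cell and with *T*. The windows hold 250 bases before and 50 bases from the start in RefSeq on GRCm38.p6. Capitals mark a match to TCACACCT, the half-site that T-box proteins such as *T* bind.
*Samd3*, chr10:26229457-26229756, + strand: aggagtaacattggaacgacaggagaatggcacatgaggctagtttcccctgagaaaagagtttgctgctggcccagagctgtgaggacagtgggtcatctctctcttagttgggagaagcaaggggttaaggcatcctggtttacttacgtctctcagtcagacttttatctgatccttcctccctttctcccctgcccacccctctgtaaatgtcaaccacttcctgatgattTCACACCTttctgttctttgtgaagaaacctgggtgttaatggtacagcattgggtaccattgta
*Noto*, chr6:85423636-85423935, + strand: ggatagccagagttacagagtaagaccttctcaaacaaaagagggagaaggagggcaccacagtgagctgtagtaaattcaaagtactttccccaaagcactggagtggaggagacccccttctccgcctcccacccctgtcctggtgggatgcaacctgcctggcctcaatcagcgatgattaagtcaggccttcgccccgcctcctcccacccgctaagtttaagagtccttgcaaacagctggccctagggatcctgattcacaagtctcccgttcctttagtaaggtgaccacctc
The match in the *Samd3* window covers bases 236 to 243, and the *Noto* window holds neither this motif nor TGTTTAC, a forkhead core that FOXA2 binds, on either strand. Over all 32851 promoter windows, 1.28% hold TCACACCT or its reverse AGGTGTGA and 3.65% hold TGTTTAC or GTAAACA. Among 508 windows of genes higher in the *Noto*-positive cells (by the test described next) the shares were 0.787% and 4.53%, and among 440 windows of genes lower there they were 2.27% and 2.73%. The letters are a description, and a site was not tested.

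**Figure D2:**
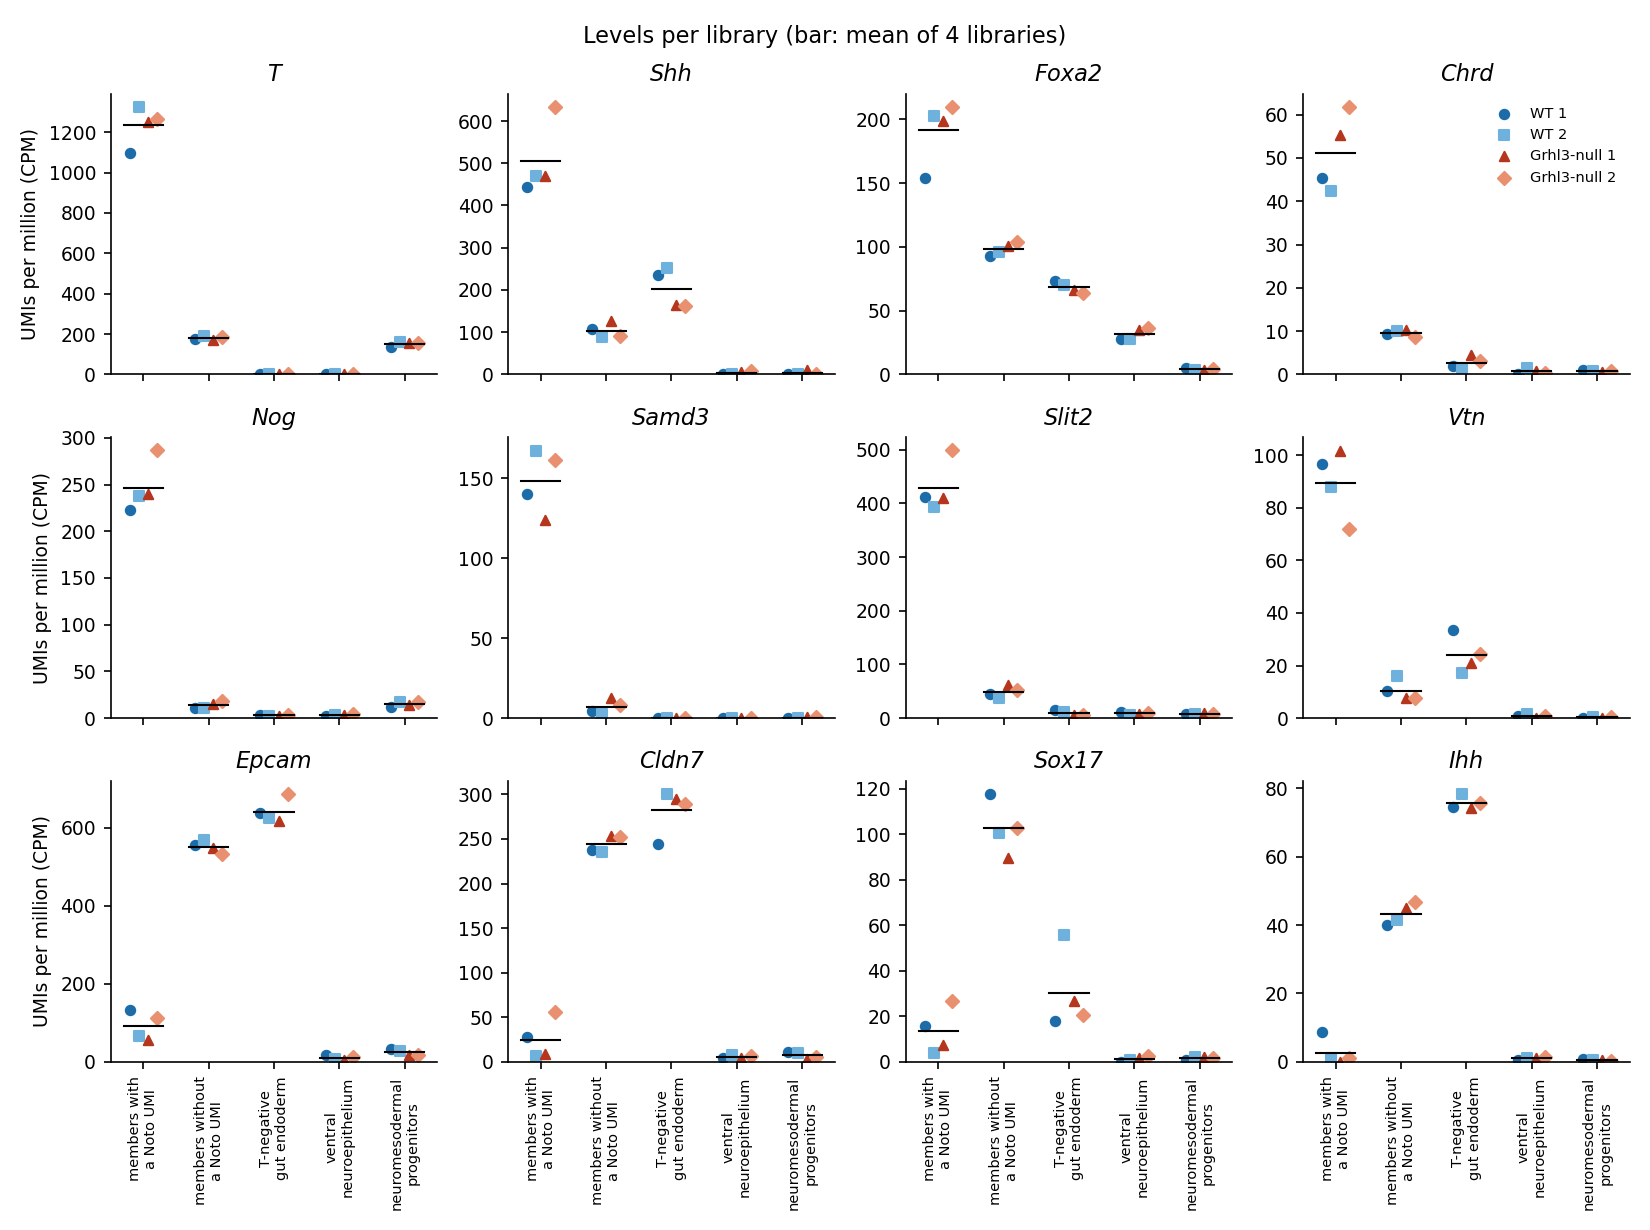
Each panel gives the summed level of 1 gene (y axis, counts per 1000000 UMIs, CPM) in 5 sets of cells (x axis), with 1 point per library and a bar at the mean of the 4 libraries. *Samd3*, *Slit2*, *Nog* and *Chrd* are high in the selected cells with a *Noto* UMI, while *Epcam*, *Cldn7* and *Ihh* are higher in the selected cells without one, where *Ihh* lies at 40.1 to 46.7 CPM against 74.2 to 78.2 CPM in the *T*-negative gut endoderm-like cells.

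To describe how the selected cells differ among themselves, the *Noto*-positive and *Noto*-undetected cells were summed per library and compared with library as a block. Genes of the rule were left out of the counts, and a gene was called where the adjusted p was under 0.05 (edgeR quasi-likelihood test, Benjamini-Hochberg) and the log2 fold change was 1 or more in either direction. Of 10336 genes, 525 (5.08%) were higher in the *Noto*-positive cells and 449 (4.34%) were lower. Because the cells were split on a gene measured in the same cells, the test says how stable a difference was over the 4 libraries. Here and in the comparisons that follow, counts over a gene list cover the members that passed the filter on low counts, which a sparse gene could pass through the cells where it was high, so they do not describe whole lists. The median share of mitochondrial UMIs was higher in the *Noto*-positive cells of every library, at 4.69%, 4.93%, 5.53% and 5.52% against 4.07%, 4.62%, 4.49% and 4.31%, and its part in the differences was not tested. Among genes of at least 10 CPM, high log2 fold changes belonged to *Pcp4l1* (5.81 ± 0.349, SE), *St8sia6* (5.47 ± 0.438), *Klhl6* (5.46 ± 0.332), *Lmx1a* (4.94 ± 0.230), *Wnt3* (4.88 ± 0.388) and *Hoxb1* (4.44 ± 0.144). *Lmx1a*, a LIM homeodomain factor, was at 57.5, 47.4, 43.4 and 59.5 CPM in the *Noto*-positive cells against 1.27, 1.15, 1.64 and 2.5 CPM in the others. Each of these genes was higher in 4 of 4 libraries with no overlap. The lowest belonged to *Hoxa10* (-5.66), the homeobox gene *Tlx2* (-4.91), *Rgn* (-4.68), *Vwf* (-4.65), *Fabp1* (-4.54), the chemokine *Cxcl12* (-4.45), the ephrin receptor *Epha5* (-4.36) and *Hoxc10* (-4.10). *Cxcl12* was at 4.83 ± 4.17 CPM (SD, n = 4) against 115 ± 22.9 CPM. All 11 study-table notochord genes outside the rule were called higher, again a list chosen on these samples, with *Cobl* (2.87) and *Nav3* (2.72) the least changed.

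Among genes known from notochord in general, 7 of 13 tested were higher and none lower. They comprised *Foxj1* (3.75), *Bicc1* (2.77), the cadherin *Cdh2* (2.05), the chondrogenic factors *Sox5* (1.97), *Sox9* (1.95) and *Sox6* (1.41), and *Car3* (1.89). The keratins *Krt8*, *Krt18* and *Krt19* and the forkhead gene *Foxa1* were not called, at log2 fold changes of 0.61, 0.07, 0.67 and 0.12. Of 12 genes of the node and left-right signalling 6 passed the filter on low counts, and 5 of these were higher, among them the TGF-beta family ligand *Nodal* (3.21), its co-receptor *Cfc1* (2.23), its antagonist *Dand5* (2.45) and *Bicc1*. *Nodal* was at 28.7, 24.2, 13.5 and 5.62 CPM in the *Noto*-positive cells and at 1.27, 7.15, 0.41 and 0.179 CPM in the others, so that the lowest *Noto*-positive library lay below the highest *Noto*-undetected library. It had a UMI in 23 of 108 and 9 of 339 cells. All 12 node genes summed to 409, 461, 471 and 465 CPM in the *Noto*-positive cells against 71.2, 94.7, 82.7 and 71.4 CPM in the others, most of it *Bicc1*. *Foxj1*, the master regulator of motile cilia, was low in absolute terms, at 6.10, 6.05, 8.98 and 14.6 CPM against 0, 0.922, 1.23 and 0.536 CPM. Of 35 motile cilia genes 11 passed the filter and 8 of these were higher, among them *Nme5* (2.84), *Cfap126* (2.59) and *Dnaaf3* (1.86), while *Ccdc40* (0.01) and *Mns1* (-0.62) were not called. All 35 summed to 163, 293, 257 and 331 CPM against 156, 168.5, 138 and 135 CPM, so that the lowest *Noto*-positive library lay within the range of the others. The median over all 10336 genes tested was -0.0013.

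**Figure D3:**
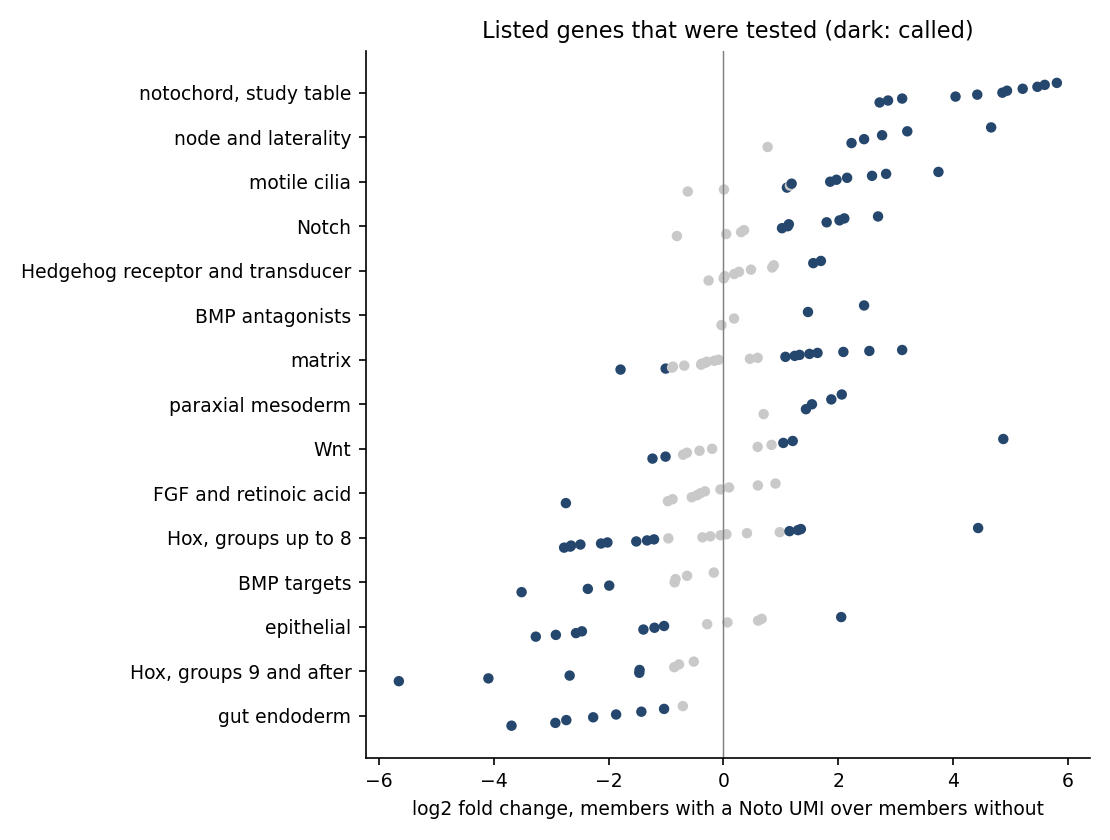
Each point is 1 tested gene of a list (rows), placed by its log2 fold change between selected cells with and without a *Noto* UMI (x axis), with called genes dark and others grey. Only genes that passed the filter on low counts are drawn, 6 of 12 node and 11 of 35 motile cilia genes among them, and a sparse gene could pass through the cells where it was high.

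Among the genes that send and read hedgehog signals, *Shh* itself belongs to the rule. Over all genes tested between these cells 5.08% were higher and 4.34% lower. *Disp1*, which releases the ligand, was higher in the *Noto*-positive cells (1.36 ± 0.25, SE) and *Ihh*, the hedgehog ligand of gut endoderm, was lower (-3.73 ± 0.36), at 8.71, 1.01, 0 and 1.12 CPM against 40.05, 41.5, 44.9 and 46.7 CPM. Of 10 tested receptors and transducers, 2 were higher, *Gli1* (1.70) and *Gli2* (1.57). *Ptch1*, the receptor that is also a target of the pathway, was at 416, 387, 422 and 389 CPM against 203, 188, 225 and 263 CPM. Its log2 fold change of 0.88 (edgeR adjusted p = 1.4e-07) fell short of the fold that was required, although the groups did not overlap. *Smo* and *Sufu*, the shared core of the pathway, had log2 fold changes of 0.19 and 0.48 and were not called.

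Of 11 listed BMP antagonists 2 belonged to the rule and 4 of the others were tested, of which 2 were higher, *Fst* (1.47) and *Dand5* (2.45), and the readout genes of BMP signalling were higher in none. Of 7 BMP targets, 3 were lower, *Msx2* (-3.52), *Id2* (-2.36) and *Msx1* (-1.99), and the list's median was -0.85. *Id2* was at 128, 70.6, 80.8 and 107 CPM in the *Noto*-positive cells against 433, 467, 557 and 568 CPM. *Id1* and *Id3*, of the same family of helix-loop-helix inhibitors, were at log2 fold changes of -0.63 and -0.17. The *Msx* genes and *Id2* thus lay well below, and *Id3* near level. *Bmp4* was lower (-1.76) and *Bmp5* higher (1.91).

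Notch genes formed the list with the most calls among the remaining pathways, with 7 of 11 tested higher and none lower, of 14 listed. They included the ligands *Dll3* (2.70) and *Dll1* (2.11), the receptors *Notch1* (2.02) and *Notch2* (1.02), and the targets *Nrarp* (1.80), *Hey1* (1.14) and *Hes7* (1.12). *Notch1* was at 112, 118, 145 and 170 CPM against 31.2, 37.8, 32.6 and 30.4 CPM. *Dll1*, *Dll3* and *Hes7* are also markers of presomitic mesoderm, and 3 of 4 tested presomitic genes and 4 of 5 tested paraxial genes (*Meox1*, *Foxc2*, *Foxc1* and *Tcf15*) were higher in the *Noto*-positive cells. *Foxc2* rested on few of them, with a UMI in 1, 1, 2 and 4 cells of the 4 libraries. The 6 presomitic genes summed to 514, 466, 425 and 492 CPM in these cells, most of it *Rspo3*, with *Tbx6* (by the rule) and *Msgn1* at 0. Whether cells of another type took part in these differences was not tested. Among Wnt genes 3 of 11 tested were higher, *Wnt3* (4.88), *Sfrp1* (1.21) and *Sp5* (1.04), and 2 lower, *Wnt5a* (-1.24) and *Axin2* (-1.01). Of 11 FGF and retinoic acid genes, the only one called was *Cyp26a1* (-2.74), which breaks down retinoic acid, at 21.8, 19.2, 8.98 and 40.4 CPM against 145, 151, 146 and 174 CPM.

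Matrix and junction genes moved in both directions. Of 21 matrix genes, 8 were higher, among them *Vtn* (3.12), *Col9a1* (2.54) and *Col2a1* (2.09), the fibrillar collagen of cartilage and notochord sheath, and 2 were lower, *Hspg2* (-1.79) and *Lama1* (-1.01). Of 12 epithelial genes, 7 were lower, namely *Cldn7* (-3.27), *Cldn3* (-2.92), *Epcam* (-2.57), *Ocln* (-2.47), *Cldn4* (-1.39), *Cdh1* (-1.20) and *Cldn6* (-1.03), and *Cdh2* was higher. E-cadherin and N-cadherin thus moved oppositely, with *Cdh2* at 252, 257, 265 and 240.4 CPM against 62.0, 61.1, 59.1 and 60.1 CPM. Of 8 tested gut endoderm genes, 7 were lower, including *Ttr* (-3.69), *Sox17* (-2.93) and *Apela* (-2.74). *Grhl2*, the paralogue of *Grhl3* in epithelia, was lower as well (-2.81 ± 0.35), at 5.23, 1.01, 1.5 and 2.25 CPM against 18.7, 18.0, 19.3 and 20.03 CPM.

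Of the *Hox* genes, more were lower than higher in the *Noto*-positive cells. Of 8 tested genes of groups 9 and after, 5 were lower and none higher, with *Hoxa10* (-5.66) and *Hoxc10* (-4.10) the most changed. Of 20 tested genes of groups up to 8, 4 were higher, among them *Hoxb1* (4.44), *Hoxa5* (1.35) and *Hoxb2* (1.15), and 9 were lower, all from groups 1 and 4 to 8. *Hoxb1* was at 169.9, 159, 157 and 185 CPM against 9.79, 5.99, 9.43 and 5.54 CPM. *Hoxb9* was at 48.8, 49.4, 50.9 and 44.9 CPM against 127, 116, 158 and 139 CPM. *Noto*-undetected cells therefore carried more RNA of several late-activated *Hox* genes, without overlap for *Hoxb9*.

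None of 20 proliferation genes was called (median -0.16), yet the share of cells with a UMI of *Mki67* or *Top2a* was lower in the *Noto*-positive cells when every cell was thinned to 7500 UMIs. That share was 69.7%, 82.8%, 60% and 69.2% in the *Noto*-positive cells and 88.5%, 86.8%, 89.0% and 96.8% in the others. Unthinned shares were 84.8%, 93.1%, 75% and 80.8% against 97.7%, 95.6%, 93.4% and 97.8%. The thinned shares did not overlap, and all other filtered cells lay between 90.5% and 92.0%. The *T*-negative gut endoderm-like cells, at 91.7%, 77.0%, 84.0% and 78.5%, overlapped the *Noto*-positive range. With 20 to 33 *Noto*-positive cells per library the 95% Clopper-Pearson intervals are wide, from 36.1% to 80.9% in the smallest library. The cell cycle inhibitor *Cdkn1c* was higher in the *Noto*-positive cells (2.16 ± 0.13, SE), at 764, 953, 573 and 994 CPM against 159, 172, 228 and 174 CPM, and *Cdkn1a* was lower (-1.27).

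The *Noto*-undetected cells were next set against the 452 *T*-negative gut endoderm-like cells (*Epcam* and *Cldn6* at 2 or more UMIs, 2 of 6 gut markers, no *T* and no *Noto*), leaving out the genes that chose either set. Of 11453 genes, 326 (2.85%) were higher and 552 (4.82%) were lower in the *Noto*-undetected cells. *Fgf8*, a growth factor of the tail bud, was at 237, 211, 185 and 237 CPM against 4.32 ± 1.87 CPM (SD, n = 4). Among genes with a mean of at least 10 CPM its log2 fold change was the highest (5.68 ± 0.106, SE). *Cyp26a1* (4.90), *Epha5* (4.75), *Tlx2* (4.30), *Fgf17* (4.25), *Car3* (4.12), *Rspo3* (4.04) and *Lmo2* (3.84) followed within this limit. *Car3* rested on few cells, with a UMI in 57 of the 339 *Noto*-undetected cells (16.8%). In *Grhl3*-null library 1 a single one of them held 129 of its 280 UMIs. Within the same limit the lowest belonged to genes of visceral and liver endoderm, *Apoa1* (-7.22), *Apob* (-5.69), *Afp* (-5.32), *Cubn* (-5.25), *Spp2* (-5.15), *Lgals2* (-4.52), *S100g* (-4.41) and *Fgb* (-4.35). *Apoa1* was at 1.09, 0.461, 2.87 and 3.22 CPM against 300.4 ± 67.9 CPM. *Cldn7* (log2 fold change -0.21) and *Cdh1* (-0.49) differed little between these sets, while genes of secreted plasma proteins lay far apart.

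By pathway, 7 of 8 posterior *Hox* genes and 15 of 20 *Hox* genes of groups up to 8 were higher in the *Noto*-undetected cells than in the gut endoderm-like cells, and none was lower. Of 10 tested Wnt genes, 5 were higher, led by *Wnt3a* (4.31), *Notum* (3.75), *Sp5* (3.29) and *Axin2* (3.23), and *Dkk1* (-1.05) and *Frzb* (-1.12) were lower. Of 11 tested FGF and retinoic acid genes, 6 were higher and 2 lower, the latter being *Rarb* (-2.51) and *Rdh10* (-1.01). Of 11 tested Notch genes, 6 were higher and none lower. These are genes of the tail bud, and 5 of 6 tested markers of neuromesodermal progenitors (*Epha5*, *Fgf17*, *Sox2*, *Sp8* and *Lix1*) were also higher. *T* is itself a tail bud gene, and the sets were chosen to differ in it. *Sox17* belonged to the rule for the gut endoderm-like cells and is given without a test, at 118, 100.5, 89.6 and 103 CPM in the *Noto*-undetected cells against 17.8, 55.9, 26.8 and 20.5 CPM.

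Against the same gut endoderm-like cells the *Noto*-positive cells were farther away, with 561 of 9843 genes higher (5.7%) and 747 lower (7.59%). *Samd3* (10.44 ± 0.282, SE), *Lmx1a* (8.96), *Mixl1* (8.76), *Avpr1b* (7.46), *Sostdc1* (7.4), *Wnt3* (7.14) and *Nav3* (6.96) were among the most enriched. *Samd3* and *Lmx1a* had 1 UMI each in all 452 gut endoderm-like cells, and the other 5 had few, from 0 to 3 per library, so these fold changes depend on the fit and give no exact size. Of 4 listed hedgehog targets 3 were tested and were higher, among them *Gli1* (2.83) and *Ptch1* (1.52). Of 5 tested posterior *Hox* genes none was higher and *Hoxa10* (-5.05) was lower. *Hoxb9* and *Hoxc9* were not called here (-0.39 and -0.82), whereas in the *Noto*-undetected cells their log2 fold changes were 1.18 and 2.06. These comparisons share their gut endoderm-like libraries, and since all sets were chosen on UMIs of the same cells the tests again say only how stable the differences were over libraries.

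*T*-positive progenitors of the tail bud offered a second neighbour. The 1483 neuromesodermal progenitor-like cells had at least 2 UMIs each of *T*, *Sox2* and *Nkx1-2* and none of *Tbx6* and *Noto*. Against them the *Noto*-undetected cells had 1411 of 12476 genes higher (11.3%) and 631 lower (5.06%). Of 10 gut endoderm genes, 9 were higher, led by *Nepn* (7.09), *Sox17* (5.86) and *Spink1* (5.45), and *Apoa1* (-1.21) was lower. Of 12 epithelial genes, 10 were higher, led by *Krt19* (5.03) and *Cldn7* (5.00), and *Cdh2* (-1.29) was lower. Of 6 tested progenitor markers, 5 were lower, among them *Hes3* (-6.42), *Lix1* (-4.07) and *Epha5* (-1.23), and *Sp8* was not called (-0.92). *Hes3*, a repressor of the Hes family, was at 0.362, 0.692, 2.26 and 0.894 CPM in the *Noto*-undetected cells against 86.7 ± 7.44 CPM (SD, n = 4) in the progenitor-like cells. *Epha5* and *Fgf8* thus lay between the progenitor-like and gut endoderm-like cells, at 117 ± 12.2 and 217 ± 25.0 CPM against 265 ± 24.6 and 351 ± 15.4 CPM in the former. Of 8 posterior *Hox* genes, 4 were higher (*Hoxd11*, 4.08; *Hoxa10*, 2.17; *Hoxd10*, 1.80; *Hoxd9*, 1.34) and *Hoxb9* was lower (-1.53).

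The *Noto*-positive cells had 1293 of 12074 genes higher (10.7%) and 593 lower (4.91%) than the same progenitor-like cells. *Samd3* (8.53 ± 0.268, SE), *Vtn* (7.94), *Sostdc1* (7.42), *St8sia6* (7.13), *Lgals3* (7.05), *Ly6h* (6.97) and *Avpr1b* (6.70) were among the most enriched, and *Sema3a* (-6.64), *Hes3* (-6.40), *Epha5* (-5.61) and *Lix1* (-5.17) the most depleted. Of 13 general notochord genes, 11 were higher, among them *Foxa1* (5.73), *Krt19* (5.67) and *Sox9* (5.63), genes that the comparison of *Noto*-positive with *Noto*-undetected cells had left uncalled or less changed. *Foxa1* was likewise higher in the *Noto*-undetected cells than in the progenitor-like cells (5.69). Of 12 FGF and retinoic acid genes, 6 were lower, with *Cyp26a1* at -2.38, *Fgf17* at -1.96 and *Fgf8* at -1.20. Of 8 tested node genes, of 12 listed, 7 were higher, including *Pkd1l1* (7.59), which encodes a ciliary channel subunit, and *Nodal* (5.97). *Pkd1l1* had 1 UMI and *Nodal* 25 UMIs in all 1483 progenitor-like cells, so such genes were tested because of their level in the *Noto*-positive cells and the count is no support. Both comparisons share their progenitor-like libraries.

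Ventral neuroepithelium lies beside the notochord and reads its hedgehog signal. The 661 ventral neuroepithelium-like cells had at least 2 UMIs each of *Nkx6-1* and *Sox2* and no *T* or *Noto*. The *Noto*-positive cells had 1103 of 10237 genes higher (10.8%) and 517 lower (5.05%) than these. *Gli1* was at 41.8, 31.3, 35.9 and 35.9 CPM in the *Noto*-positive cells and at 34.4, 24.5, 36.2 and 38.3 CPM in the ventral neuroepithelium-like cells, and the ranges overlapped (log2 fold change 0.08 ± 0.15, SE). *Ptch1* was at 416, 387, 422 and 389 CPM against 323, 268, 318 and 350.3 CPM (0.31 ± 0.067). *Gli1* was thus at a like level in the cells that carried *Shh* and in the neuroepithelium-like cells, and *Ptch1* was higher in the former without overlap but by less than the fold required. Of 12 receptors and transducers none was higher and 4 were lower, *Boc* (-2.88), *Gas1* (-1.46) and *Gli2* (-1.19), of which the first 2 encode co-receptors, and *Hhip* (-1.40), which binds the ligand. Of 21 matrix genes, 15 were higher and *Spon1* (-1.29) was lower. They included *Vtn* (6.69), *Col9a1* (4.54), *Smoc1* (2.72) and the laminin subunit *Lamb1* (2.40).

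The share of filtered cells that met the rule was 2.20%, 1.90%, 2.29% and 2.49% in the 4 libraries. The 95% Clopper-Pearson intervals, which cover counting error only, were 1.83% to 2.62%, 1.54% to 2.31%, 1.89% to 2.75% and 2.07% to 2.97%. The mean was 2.05% ± 0.214 in WT and 2.39% ± 0.139 in *Grhl3*-null (SD, n = 2), with an exact two-sided permutation p = 0.333, the smallest that 2 libraries against 2 can give. The share of *Noto*-positive cells was lower in *Grhl3*-null, 0.605% and 0.567% against 0.413% and 0.544%, and that of *Noto*-undetected cells was higher, 1.59% and 1.33% against 1.88% and 1.95%. With at least 2 *Noto* UMIs and at least 1 of *Shh*, *Foxa2*, *Chrd* and *Nog* as the condition, whatever *T*, *Tbx6* and *Nkx1-2*, the shares were 0.934% and 1.21% in WT against 0.743% and 0.858% in *Grhl3*-null. The direction thus depended on which cells were counted.

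Between genotypes, the genes that chose the cells are again given as descriptions. *T* was at 335 and 400.4 CPM in WT against 301 and 334 CPM in *Grhl3*-null over all selected cells. Within the *Noto*-positive cells it was at 1096 and 1325 CPM against 1248 and 1265 CPM, and within the *Noto*-undetected cells at 177 and 189 CPM against 171 and 186 CPM, so the genotypes overlapped in either set. *Shh* was at 166 and 159 CPM against 167 and 165 CPM, and *Chrd* at 15.5 and 16.1 CPM against 15.7 and 15.9 CPM. *Noto* was at 29.4 and 28.5 CPM against 18.6 and 19.3 CPM over all selected cells, in step with the number of *Noto*-positive cells, and at 171 and 153 CPM against 154 and 140.4 CPM within those cells. *Nog* was at 47.1 and 53.3 CPM against 42.6 and 55.5 CPM over all selected cells, but the sexes went opposite ways. It was at 32.4 and 27.3 CPM in male WT cells against 54.7 and 79.9 CPM in male *Grhl3*-null cells, and at 56.5 and 68.5 CPM against 30.8 and 31.4 CPM in female cells. The log2 fold changes of *Shh* were 0.48 in male and -0.55 in female cells, those of *T* 0.13 and -0.66, and those of *Noto* -0.24 and -1.09. In sums over cells, fewer cells and less RNA per cell cannot be told apart.

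Of 11731 genes tested between genotypes, 19 (0.162%) were called higher and 22 (0.188%) lower in *Grhl3*-null. At an unadjusted p under 0.05 there were 1841 genes, and DESeq2 called 2 higher and 2 lower. DESeq2 gave no adjusted p for 10007 of the 11731 genes, 37 of the 41 called genes among them, and all 41 kept their direction there and changed by no less than 1 on the log2 scale. Genes of the rule apart, no tested gene was called in the lists for hedgehog, BMP, Wnt, FGF and retinoic acid, Notch, planar polarity, epithelial, matrix or motile cilia genes. Of 13 general notochord genes 1 was called (*Car3*), and of the 11 study-table notochord genes outside the rule none. *Nodal* was lower (-2.51 ± 0.39, SE; edgeR adjusted p = 0.0015), at 6.0 and 10.3 CPM in WT against 1.98 and 0.926 CPM. It rested on few cells, with a UMI in 12, 8, 7 and 5 cells of the 4 libraries, and in WT library 2 a single *Noto*-undetected cell held 27 of its 55 UMIs. Within the *Noto*-positive cells it was at 28.7 and 24.2 CPM against 13.5 and 5.62 CPM. When the sexes were fitted apart, *Nodal* was tested in female cells only (log2 fold change -4.10).

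Posterior *Hox* genes formed the list with the most calls. Of 12 genes of groups 9 and after 10 were tested, 6 were lower and none higher, and all 12 summed to 580 and 560 CPM in WT against 384 and 401 CPM in *Grhl3*-null, while of 21 tested genes of groups up to 8 none was called (median 0.01). *Hoxc10* (chr15:102966796-102971893, + strand) was at 77.1 and 82.9 CPM in WT against 7.21 and 12.5 CPM in *Grhl3*-null (log2 fold change -3.01 ± 0.138, edgeR adjusted p = 7.6e-11). *Hoxd11* (chr2:74679557-74687016, + strand) was at 34.2 and 38.8 CPM against 3.97 and 2.62 CPM (-3.50 ± 0.192). *Hoxa10* (chr6:52231197-52240854, - strand) was at 65.4 and 65.1 CPM against 20.6 and 22.2 CPM (-1.63 ± 0.0966). In each case both WT libraries lay above both *Grhl3*-null libraries by far more than the spread between reactions, which does not cover embryos. *Hoxd11* differed within the WT pool by sex, at 2.29 and 2.96 CPM in male and 58.6 and 63.4 CPM in female cells. Its male WT cells lay within the range of the *Grhl3*-null cells. *Hoxd10* (-2.81), *Hoxa11* (-3.64) and *Hoxc11*, which had no UMI in the *Grhl3*-null cells, completed the 6, and the sparse *Hoxa11* and *Hoxc11* could pass the filter through the WT libraries where they were higher. When the sexes were fitted apart, *Hoxd11*, *Hoxd10*, *Hoxa11* and *Hoxc11* were tested in female cells only. *Hoxa10* was lower in either sex (-1.45 in male and -1.52 in female cells), as was *Hoxc10* (-2.50 and -2.95). *Hoxb9* (0.29), *Hoxa9* (-0.12), *Hoxc9* (-0.24) and *Hoxd9* (-0.58) were not called. The other filtered cells differed likewise. There *Hoxc10* was at 61.7 and 63.5 CPM against 7.12 and 7.74 CPM, and the difference between the contrasts was not called (0.06 ± 0.157).

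Several other differences lay near the *Grhl3* locus or in near-identical copies of genes there. *Stmn1*, which encodes a microtubule-destabilising protein and lies 1.07 Mb from *Grhl3* on chromosome 4 (chr4:134468320-134473843, + strand), was at 1209 and 1288 CPM in WT against 408 and 440.3 CPM in *Grhl3*-null (-1.58 ± 0.0501, edgeR adjusted p = 2.6e-13). *Hdac1*, a histone deacetylase gene 6.03 Mb away, was at 169.8 and 179 CPM against 84.6 and 81.5 CPM (-1.10 ± 0.069). *Gm10036* was at 5.10 and 3.19 CPM against 326 and 274 CPM (6.11 ± 0.145) and matches *Rpl11*, a ribosomal protein gene 0.486 Mb from *Grhl3*, at 99.4% over 503 bases. *Gm10093* was at 0.90 and 0.938 CPM against 56.5 and 47.4 CPM and matches *Hdac1* at 99.4% over 1444 bases. *Gm10282*, at 12 and 10.5 CPM against 25.8 and 30.9 CPM, matches *Hmgn2*, 1.58 Mb from *Grhl3*, at 99.3% over 1151 bases. *Rpl11* itself was at 3485 and 3505 CPM against 2842 and 2747 CPM and *Hmgn2* at 530.1 and 553 CPM against 411 and 429 CPM. Each copy was called higher while its parent gene stood lower in both *Grhl3*-null libraries, and reads of such near-identical copies can be assigned to either, so the levels of these pairs are uncertain. All other filtered cells differed likewise, with *Stmn1* at 1021 and 1059 CPM against 324 and 386 CPM and *Gm10036* at 4.95 and 4.29 CPM against 339 and 304 CPM. *Fam210b*, on chromosome 2, was lower by a smaller amount (-1.06 ± 0.186), at 16.4 and 19.3 CPM against 10.1 and 7.4 CPM, and was not called in male cells alone (-0.32, against -1.34 in female cells).

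**Figure D4:**
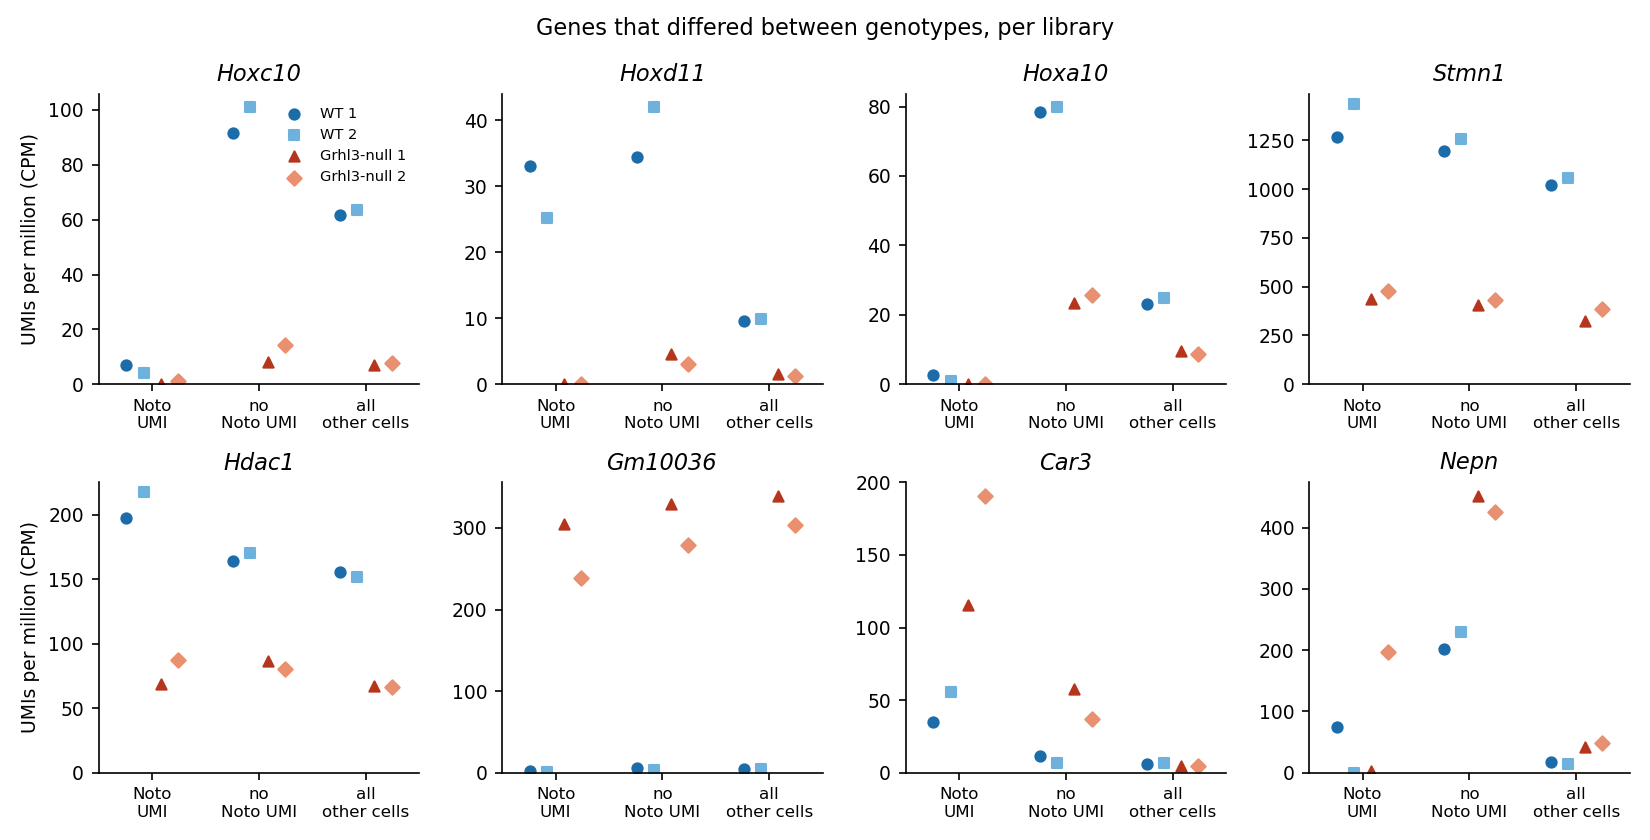
Each panel gives the level of 1 gene (y axis, CPM) in selected cells with a *Noto* UMI, selected cells without one and all other filtered cells (x axis), with 1 point per library. *Stmn1*, *Hdac1* and *Gm10036* separate the genotypes in all 3 sets, *Hoxc10* and *Hoxa10* mainly in the cells without a *Noto* UMI and the other cells, and *Car3* is higher in *Grhl3*-null in both sets of selected cells and slightly lower in the other cells.

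*Nepn*, which encodes nephrocan, a secreted protein of hindgut endoderm, was at 179.7 and 187 CPM in WT against 398 and 394 CPM in *Grhl3*-null (1.09 ± 0.0548, edgeR adjusted p = 3.3e-10), and the direction reversed (-0.25) under a stricter rule that asked for at least 3 *T* UMIs and 3 of the 5 genes. Most of it came from the *Noto*-undetected cells, at 202 and 229 CPM against 452 and 425 CPM, while in the *Noto*-positive cells it was at 74.9, 0, 2.99 and 197 CPM. Of 10 tested gut endoderm markers, 2 were higher, *Nepn* and *Apoa1* (1.98), and the 10 genes summed to 1260 and 1286 CPM against 1629 and 1590 CPM, with *Apela* the most abundant. The part of these other markers in the difference was not tested. *Car3*, which encodes a carbonic anhydrase, was at 15.3 and 15.9 CPM against 64.4 and 58.0 CPM (1.94 ± 0.112), and its direction differed between the sexes, as given in the split by sex. It rested on few cells, since 5 cells held 76.8% and 64.1% of its UMIs in the *Grhl3*-null libraries. In all other filtered cells *Car3* was at 5.86 and 6.83 CPM against 4.93 and 4.67 CPM.

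*Kdr* and *Etv2*, genes of blood vessel progenitors, were higher in *Grhl3*-null (3.16 and 2.39), and few cells carried them. In *Grhl3*-null library 1, 9 cells had a *Kdr* UMI and 5 of them held 92.3% of its 52 UMIs, while 1 cell held 21 of 68 *Etv2* UMIs (30.9%). In *Grhl3*-null library 2, 1 cell held 120 of 134 *Kdr* UMIs (89.6%) and 75 of 89 *Etv2* UMIs (84.3%). Of 7 endothelial genes 4 were tested and these 2 called, and the 7 summed to 55.4 and 58.0 CPM in WT against 97.4 and 86.2 CPM in *Grhl3*-null. *Egfl7* was the most abundant, at 34.7 CPM, and the defining genes *Cdh5* and *Pecam1* were at 0.761 and 0.496 CPM on average.

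Taken separately, the *Noto*-positive cells had 13 (0.159%) genes higher and 11 (0.135%) lower of 8155, and the *Noto*-undetected cells had 23 (0.202%) higher and 23 (0.202%) lower of 11408. The 2 sets shared 6 calls, which is 25.0% of the first and 13.0% of the second. *Stmn1* was lower in both (-1.57 and -1.57), *Gm10036* higher in both (7.06 and 5.96) and *Car3* higher in both (1.79 and 2.30). In the *Noto*-positive cells *Hoxd11* was at 33.1 and 25.2 CPM in WT and at 0 and 0 in *Grhl3*-null, and *Hoxd9* (-2.09), *Hoxa9* (-1.84) and *Hoxc8* (-1.80) were lower. *Hes5* (3.14), *Ebf1* (3.18) and *Foxc2* (2.08) were higher there. With 20 and 26 *Noto*-positive cells in the *Grhl3*-null libraries these calls rest on few cells. *Col2a1* was higher in the *Noto*-undetected cells (1.38 ± 0.138), at 16.7 and 14.3 CPM against 44.1 and 38.8 CPM, but 5 cells held 74.4% and 62.2% of its UMIs in the *Grhl3*-null libraries. Over all selected cells *Col2a1* was at 22.1 and 27.9 CPM in male WT cells against 88.6 and 101.5 CPM in male *Grhl3*-null cells, and at 33.8 and 30.0 CPM against 18.0 and 17.8 CPM in female cells, so the direction differed between the sexes.

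The difference between genotypes in the selected cells was also tested against that in all other filtered cells. Of 16022 genes, 18 (0.112%) had a higher and 28 (0.175%) a lower log2 fold change in the selected cells. *Car3* had the lowest adjusted p (2.35 ± 0.151, edgeR adjusted p = 6.1e-16), followed by *1700011H14Rik* (-1.10) and *Kdr* (2.44). *Hoxd11* (-0.72), *Hoxa10* (-0.25), *Stmn1* (-0.02) and *Gm10036* (0.01) were not called. *Car3* and *Kdr* rested on few cells, and *Car3* went opposite ways in the sexes (2.73 in male and -1.26 in female cells). A difference that misses the threshold does not show that the contrasts were equal.

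The embryos of a pool are not labelled, but a cell's sex can be read from its Y-linked and *Xist* UMIs. Male cells made up 36.6% and 28.6% of the sexed selected cells in WT and 48.5% and 57.4% in *Grhl3*-null. *Hoxd11* in WT came almost wholly from the female cells, at 58.6 and 63.4 CPM against 2.29 and 2.96 CPM in male cells, while *Grhl3*-null cells were at 4.13 and 4.79 CPM (female) and 5.05 and 0.666 CPM (male). *Hoxc10* was at 118 and 121 CPM in female WT cells and 25.2 and 29.6 CPM in male WT cells, against 9.76 and 20.5 CPM (female) and 4.13 and 5.66 CPM (male) in *Grhl3*-null. *Hoxc10* was lower in *Grhl3*-null within either sex (-2.95 and -2.5), whereas for *Hoxd11* the male WT cells lay within the range of the *Grhl3*-null cells. *Car3* did the reverse. It was at 143 and 102 CPM in male *Grhl3*-null cells and 7.89 and 5.47 CPM in female *Grhl3*-null cells, against 17.2 and 17.8 CPM (male) and 15.4 and 16.6 CPM (female) in WT. Its log2 fold change was 2.73 in male cells and -1.26 in female cells (edgeR adjusted p = 0.0071). *Stmn1* was the same in either sex (-1.57 in male and -1.56 in female cells). With 5 and 3 embryos per pool, each sex holds few embryos, and sex, embryo and stage cannot be told apart.

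**Figure D5:**
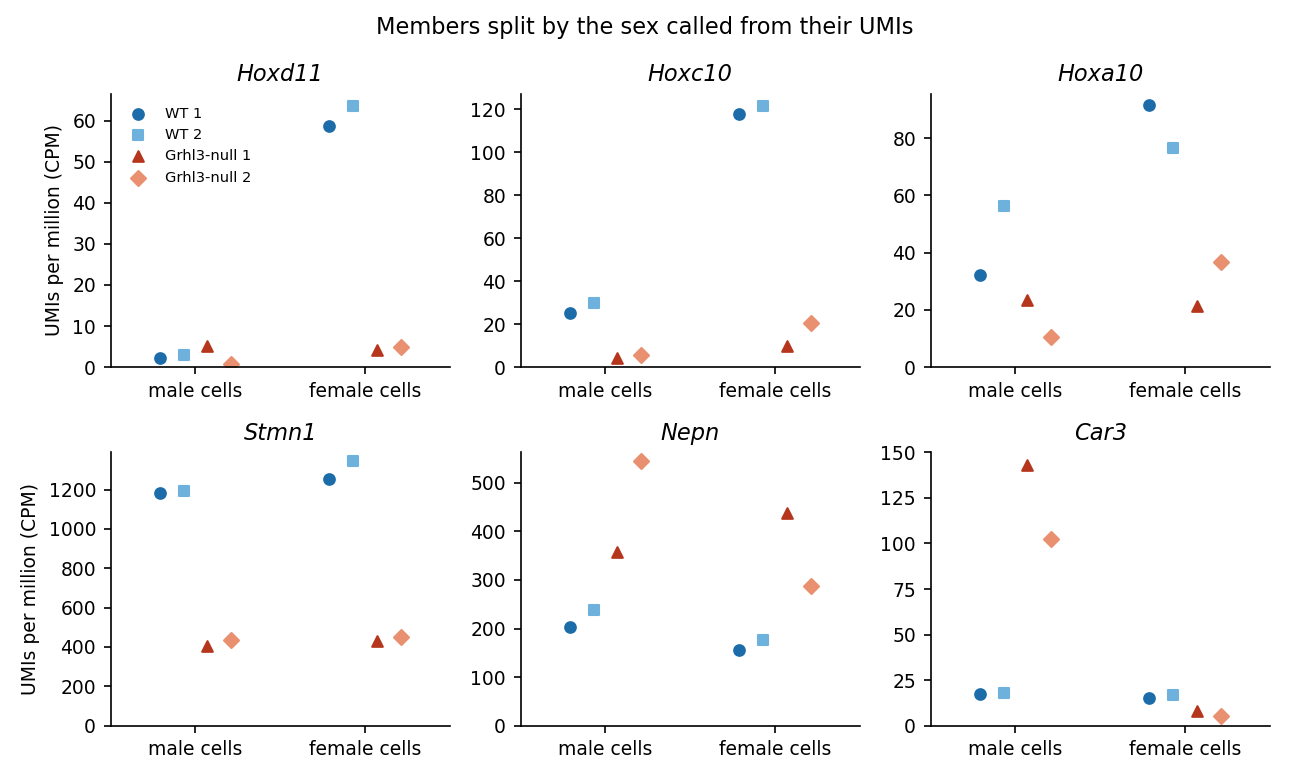
Each panel gives the level of 1 gene (y axis, CPM) in male and female selected cells (x axis), called from Y-linked and *Xist* UMIs, with 1 point per library. *Stmn1* separates the genotypes alike in both sexes, *Hoxd11* is high only in the female WT cells, and *Car3* is high only in the male *Grhl3*-null cells.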

How the data were processed

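Single-cell RNA-seq was carried out on cells pooled from 5 WT and 3 *Grhl3*-null embryos, with 2 reactions per pool. Reads were aligned to mm10 and UMIs counted with Cell Ranger 3.0.0, and the deposited matrices hold raw UMI counts per gene and cell barcode that the authors had not yet filtered. Cells with at least 3000 genes, 7500 UMIs and at most 7% mitochondrial UMIs were kept here, with totals of 226723903 and 220747840 (WT) and 226059247 and 209833527 (*Grhl3*-null) UMIs per library. The members of the class and the gene lists were chosen with earlier results of these data known. Doublets were scored with scanpy 1.11.5 (top 5% per library marked) and kept, and were left out as an alternative. Raw counts were summed per library and cell set and tested with edgeR 4.0.16 (quasi-likelihood test, TMM, R 4.3.3) with Benjamini-Hochberg adjustment over all genes tested. Comparisons between cell sets had library as a block and the genotype comparison had none, since the labels name no batch shared by same-numbered libraries. Genes with adjusted p below 0.05 whose log2 fold change reached 1 in either direction were called. In comparisons between cell sets the genes that chose the cells were left out. Named genes were those of the fixed lists, the 8 called genes of largest positive and negative change with a mean of at least 10 CPM, the 8 genes most like *Noto*, *Shh* and *T*, and *Grhl3*. *Fgf8*, *Apoa1* and other genes singled out for sentences on levels, the sex split and *1700011H14Rik* were chosen after values were seen. Cells were called male with at least 2 Y-linked and at most 2 *Xist* UMIs and female with at least 3 *Xist* and at most 1 Y-linked UMIs. On simulated counts the genotype comparison recovered 200 of 200 genes changed by a log2 fold of 2, with 1 wrong call over 11695 genes. Changes were planted only in well-counted genes, with a common dispersion and no difference between embryos. The simulation therefore says nothing on sparse genes, on genes carried by single cells or on false calls from differences between embryos. Alternatives used DESeq2 1.42.0, other normalisation, filters, thinning to 7500 or 20000 UMIs, subsets of cells and each library left out. Promoter windows came from RefSeq (GRCm38.p6). Intervals cover counting error only. Results for some genes are not reported here.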

Additional observations from a re-analysis of the deposited data

Results flagged for a closer look

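Of the 46 genes called in the edgeR test of the genotype difference in the selected cells against that in all other filtered cells (0.112% of genes higher and 0.175% lower), 11 had a mean of at least 10 CPM over the libraries of the fit and are given here as the log2 fold change in the selected cells minus that in the others. For *Kdr* (2.44), *Car3* (2.35), *Etv2* (1.74), *Ebf1* (1.24), *Foxc2* (1.22) and *Pitx1* (-1.5) the gene was also called between genotypes within the selected cells. For *Fam212a* (1.32), *Sfn* (1.26), *Fabp1* (-1.25), *Rbp4* (-1.14) and *1700011H14Rik* (-1.10) it was not. *Sfn*, for example, lies 1.94 Mb from *Grhl3* on chromosome 4. It was at 13.1, 15.8, 11.2 and 12.7 CPM in the selected cells and at 11.4, 9.28, 3.59 and 3.59 CPM in the others, so the genotypes differed more in the other cells. Several rest on few cells. In *Grhl3*-null library 1 a single cell held 15 of 35 *Fam212a* UMIs and a different cell held 19 of 46 *Ebf1* UMIs. Single cells also held 64 of 95 *Fabp1* UMIs in *Grhl3*-null library 2, 20 of 37 *Pitx1* UMIs in WT library 1 and 96 of 243 *Rbp4* UMIs in WT library 2. *LacZ* and *LacZm*, reporter sequences added to the reference, were not used in any comparison. *LacZ* had 13 and 22 UMIs in the *Grhl3*-null libraries outside the selected cells, none in WT and none in the selected cells. *LacZm* had 2 and 3 UMIs there.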

How the results depend on the processing

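The difference in the share of selected cells between genotypes (0.344 percentage points) was -0.023 with cells thinned to 7500 UMIs, -0.232 at 20000 UMIs, -0.0633 under a stricter rule, 0.0876 with a mitochondrial limit of 5%, 0.0621 over all deposited cells, -0.107 for *Noto*-positive cells, -0.273 for cells chosen on *Noto* UMIs, and 0.193 to 0.495 without 1 library. Without doublets this difference was 0.224. The cause was not tested. The 41 genes called between genotypes became 4 with DESeq2 (37 of the 41 had no adjusted p there and all 41 kept direction and a log2 fold of at least 1), 24 in *Noto*-positive cells, 23 in cells chosen on *Noto* UMIs, 89 in female cells (37 higher, 52 lower, 23 shared), 60 in male cells (50 higher, 10 lower, 12 shared), 76 with no low-count filter, 14 in thinned cells (fewer genes and UMIs) and 55 to 62 without 1 library. Without doublets there were 47, of which 36 were among the 41. With the replicate number as a block there were 48, all 41 among them. The deviations of same-numbered libraries correlated at -0.019 over 6589 genes. These are sums over different cells, so the value does not settle whether same-numbered libraries shared a batch. The 46 calls of the difference from other cells became 13 with DESeq2 (9 of the 46 had no adjusted p, 24 missed the threshold and all 46 kept direction and a log2 fold of at least 1) and 38 to 58 without 1 library. Without 1 library, calls by *Noto* ranged from 950 to 1037. Over all selected cells, calls against gut endoderm-like cells (988) ranged from 966 to 1064, progenitor-like cells (2094) from 2097 to 2147 and ventral neuroepithelium-like cells (1994) from 1992 to 2105; the counts given for *Noto*-positive and *Noto*-undetected cells were not rerun without 1 library.

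Of the named genes between genotypes, 312 values were unchanged and 34 lost the call. Unchanged means the same call and direction for called genes, and a move within the standard error for genes without a call. Of genes without a call, 42 values moved by more than their standard error and 2 gained a call. Another 3 values reversed, namely *Car3* in female cells (-1.26), *Nepn* under the stricter rule (-0.25) and *Nog* in male cells (1.10). A gene without a call was counted as reversed only if it was called in the opposite direction, so smaller changes of sign are not among the 3. DESeq2 values of called genes that kept direction but had no adjusted p were not counted. The difference of *Dppa3* from other cells reversed without doublets (-1.03). Between the selected and gut endoderm-like cells, 11 genes reversed when *Noto*-positive cells were taken alone: *Bmp4* (-0.15), *Cdkn1a* (-0.10), *Msx1* (-0.38), *Hoxa7* (-0.30), *Hoxa9* (-0.14), *Hoxb6* (-0.96), *Hoxb8* (-0.75), *Hoxb9* (-0.39), *Hoxc6* (-0.81), *Hoxc8* (-0.73) and *Hoxc9* (-0.82). None of the values of the *Noto* comparison reversed, and 47 values in 21 of its 118 named genes lost the call. Against the gut endoderm-like cells 85 values in 35 of 118 genes lost it. For the difference from other cells 36 values in 15 of 18 genes did so. With 20 to 33 *Noto*-positive cells per library, single cells set the levels of sparse genes.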
